A study of Mus musculus with 74 samples.

Results

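The 10 genes described here are structural genes of the intestinal epithelium, 9 of them coding for proteins that build or anchor the microvilli of the brush border and 1, Cdh17, for a cadherin: Vil1, Espn, Eps8, Ezr, Myo1a, Cdhr2, Cdhr5, Ush1c, Myo7b and Cdh17. They were chosen by symbol, as 10 of the 24015 rows of a mouse RNA-seq gene count table, and all 10 passed the filter on low counts. The table holds 31 libraries in 15 groups, out of 74 samples that also include ATAC-seq and ChIP-seq.

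Microvilli are finger-like membrane protrusions, each held up by a core of parallel actin filaments. Villin (Vil1) and espin (Espn) bundle those filaments, Eps8 acts at their growing tips, and ezrin (Ezr) and myosin 1a (Myo1a) tie the core to the membrane around it. Neighbouring microvilli are packed together by adhesion between the protocadherins Cdhr2 and Cdhr5, whose tails are held by the scaffold harmonin (Ush1c) and the motor Myo7b. Cdh17, a cadherin of the gut epithelium, differs from the rest of the set because it sits on the lateral membrane between cells. Cdx2 is the transcription factor that specifies intestinal identity in the gut epithelium, and the series sets normal development beside libraries labelled as lacking it.

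Wild-type embryos were CD1 mice, sampled as forestomach, hindstomach and small intestine at E12, E14 and E16 and as small intestine at E18, with 2 libraries in each group. At E12 and E14 the tissue labelled small intestine carries the cell type label midgut. The libraries labelled as Cdx2-deleted came from Cdx2f/f mice on a B6;129 mixed background, so strain and genotype cannot be told apart in the embryo. Deletion labelled E10 used Shh-Cre, with 3 libraries collected at E16. Deletions labelled E13 and E15 used Villin-Cre and a 5 mg gavage of tamoxifen, with 2 libraries collected at E16 and 2 at E18. Adult ileum villi came from Cdx2f/f; Villin-Cre mice given 1 mg tamoxifen daily for 5 days (2 libraries), against Cdx2f/f mice without Cre given oil (2 libraries). No tamoxifen is listed for the wild-type embryos. Cre, and tamoxifen where it was given, therefore cannot be told apart from the deletion label in embryo or adult. Villin-Cre is driven by regulatory DNA of Vil1, one of the 10 genes. Embryonic cells through E16 were released with trypsin and sorted for Epcam, a surface protein of epithelial cells. E18 and adult villi, and those of the E15 deletion, were released with EDTA, so stage and preparation change together between E16 and E18.

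RefSeq gave start site windows for 7 of the 10 genes on build GRCm38.p6, and 4 are shown because they differ in composition and in how their genes behaved below. Each line gives the 250 bases before the start on the gene's strand, and capitals mark matches on either strand to short forms of the sites of 4 factors: TTTATG for CDX2, CAAAGT for HNF4, AGATAA for GATA factors and GTTAAT for HNF1. The Vil1 window lies at chr1:74409134-74409383 on the plus strand, Cdhr2 at chr13:54701213-54701462 on the plus strand, Cdhr5 at chr7:141276787-141277036 on the minus strand and Ezr at chr17:6782781-6783030 on the minus strand.
Vil1: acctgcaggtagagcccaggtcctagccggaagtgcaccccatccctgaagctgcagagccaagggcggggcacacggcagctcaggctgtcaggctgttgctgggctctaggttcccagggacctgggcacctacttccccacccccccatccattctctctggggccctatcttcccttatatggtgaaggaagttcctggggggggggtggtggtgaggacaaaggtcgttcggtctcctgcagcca
Cdhr2: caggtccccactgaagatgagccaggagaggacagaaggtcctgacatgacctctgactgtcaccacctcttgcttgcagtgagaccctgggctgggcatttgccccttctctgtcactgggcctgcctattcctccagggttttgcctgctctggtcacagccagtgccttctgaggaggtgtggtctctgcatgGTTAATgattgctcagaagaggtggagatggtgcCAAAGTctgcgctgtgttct
Cdhr5: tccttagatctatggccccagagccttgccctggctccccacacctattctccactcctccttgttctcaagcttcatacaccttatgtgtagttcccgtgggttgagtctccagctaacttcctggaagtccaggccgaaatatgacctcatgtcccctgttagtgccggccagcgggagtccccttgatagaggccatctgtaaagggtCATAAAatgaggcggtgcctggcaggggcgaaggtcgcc
Ezr: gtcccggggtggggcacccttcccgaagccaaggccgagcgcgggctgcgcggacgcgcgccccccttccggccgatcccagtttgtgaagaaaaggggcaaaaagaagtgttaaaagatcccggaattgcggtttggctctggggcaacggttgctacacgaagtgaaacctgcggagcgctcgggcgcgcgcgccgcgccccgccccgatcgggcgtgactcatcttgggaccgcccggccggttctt
The Cdhr2 window held GTTAAT, starting 54 bases before the start, and CAAAGT 20 bases before it. In the Cdhr5 window the reverse complement of TTTATG began 39 bases before the start. The Vil1 and Ezr windows held none of the 4 words, nor did those of Ush1c and Myo1a, and of 3 Espn windows only 1 held a match, to TTTATG, 196 bases before its start. Among 32851 windows of this length, 10.8% held TTTATG, 12.6% CAAAGT, 9.99% AGATAA and 6.43% GTTAAT. The Ezr window held 32 CG dinucleotides, more than 95.4% of all windows, against 5 in Vil1, 7 in Cdhr5, 1 in Cdhr2 and a median of 6 over all windows. A word match describes the sequence only and was not tested as a binding site.

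Library totals ran from 5970227 to 62463167 counts in the embryo and from 14788004 to 23164522 in the adult. Values below are counts scaled to a common library size by TMM (CPM), which are not corrected for transcript length, so levels are compared within a gene and never between genes. Nothing in the labels says whether replicates came from separate animals, so p-values measure the spread between libraries only. Replicate pairs differed by a chi-square per degree of freedom of 1.499 at wild-type E18, 2.40 under the E13 label and 4.80 under the E15 label, where counting noise alone gives 1, and other pairs gave 9.19 to 122.6. The E12 small intestine pair gave 73.13, the most of the wild-type embryonic pairs. Its replicate 1 held a count for 13232 genes, the fewest of the 31 libraries, against 15507 in replicate 2. The 2 E16 forestomach libraries stood apart: Epcam was at 137 and 112 CPM there against 421 and 400 in E16 hindstomach and 726 or more in every other library, and 34 markers of mesenchyme, muscle, blood, immune, endothelial and nerve cells made up 4.23% and 5.21% of counts. Those markers took 1.15% and 1.26% in E16 hindstomach and at most 0.226% in all remaining libraries. Their part in the contrasts with E16 stomach was not tested.

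Cdx2 itself was at 17.4, 14.5 and 27.5 CPM in the libraries labelled deleted at E10, below the 196 and 218 CPM of E16 wild-type small intestine. It was not lower under the other labels. Cdx2 was at 213 and 217 CPM under the E13 label; the E15 label held 388 and 371 against 200 and 206 at wild-type E18, and the adult libraries labelled knockout held 472 and 462 against 242 and 248. Gene-level counts include any transcript of the recombined allele and do not show which exons were read. Directions below are therefore given for the libraries by their label.

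In wild-type small intestine most members rose in each interval from E12 to E18, and 1, Espn, fell in the first of them. Vil1 was present from the first stage, at 19.3 and 41.1 CPM at E12, 147 and 151 at E14, 537 and 561 at E16 and 5965 and 5922 at E18. No 2 stages overlapped, and each step passed the test: 2.30 ± 0.25 in log2 (SE; edgeR adjusted p = 4.7e-06), then 1.88 ± 0.25 (1.0e-05), then 3.44 ± 0.26 (4.4e-09). Here and below a gene is called when its Benjamini-Hochberg adjusted p, over 17239 genes in the embryo, is under 0.05 and its log2 fold change is at least 1 in size. Myo1a, with 0 and 18 counts at E12, was at 0 and 0.573 CPM at E12, then at 10.5 and 13.6, 176 and 153, and 3316 and 3323 CPM. Its 3 steps were 5.32 ± 0.59, 3.78 ± 0.42 and 4.33 ± 0.43 in log2 (edgeR adjusted p = 3.8e-06, 1.0e-06 and 6.7e-08). The sizes of first steps varied with the E12 replicates: that of Myo1a was 4.37 without replicate 1 and 11.16 without replicate 2, and that of Vil1 was 2.95 without replicate 2.

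The adhesion complex of the microvillus tips also rose, with most of the gain after E14 for the cadherins. Cdhr2 stood at 9.64 and 5.26 CPM at E12, 25.3 and 32.9 at E14, 350 and 316 at E16 and 3811 and 3758 at E18. Its steps from E14 to E16 and from E16 to E18 were of nearly equal size, 3.52 ± 0.33 and 3.51 ± 0.33 in log2 (edgeR adjusted p = 1.9e-07 and 5.7e-08). Cdhr5 stood at 23.9 and 8.76, 39.3 and 42.2, 408 and 391, and 2469 and 2507 CPM over the same stages. The E12 to E14 step of Cdhr5 did not pass the test (1.32 ± 0.56, edgeR adjusted p = 0.085), and the following steps did (3.29 ± 0.59 and 2.64 ± 0.57, adjusted p = 2.0e-04 and 6.6e-04). Myo7b, the motor of the complex, went from 11.8 and 5.03 CPM at E12 to 56 and 70.8, 164 and 137, and 1709 and 1748 CPM, with its smallest step between E14 and E16 (1.25 ± 0.39, edgeR adjusted p = 0.0167). That step lost its call without either replicate 1 library, of E14 or of E16 (adjusted p = 0.131 and 0.0933), and in DESeq2 (0.0688). Ush1c changed least of the 4, from 46.7 and 35.1 CPM at E12 to 56.7 and 51.2, 199 and 174, and 464 and 473 CPM. Its last step (1.33 ± 0.45, edgeR adjusted p = 0.0187) lost the call without any 1 of the 4 libraries (adjusted p = 0.0576 to 0.105).

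Group means of Ezr, Eps8 and the bundler Espn at E18 were 5.15, 9.95 and 2.42 times those at E12. These were the smallest ratios of the 10, that of Eps8 being close to the 11.5 of Ush1c. Ezr was at 374 and 325 CPM at E12, 557 and 558 at E14, 751 and 662 at E16 and 1791 and 1807 at E18, and only the last of these steps was called (1.35 ± 0.12, edgeR adjusted p = 1.3e-08). Eps8 went from 26.3 and 29.9 CPM to 65.9 and 79.2, then 190 and 182, then 281 and 279, with the first 2 steps called (1.36 ± 0.30 each, edgeR adjusted p = 0.00237 and 0.0013) and the last not (0.59 ± 0.29, adjusted p = 0.0975). Espn was the exception in direction: it fell from 85 and 72.5 CPM at E12 to 41.8 and 35.2 at E14 (-1.03 ± 0.16, edgeR adjusted p = 1.2e-04) and then stood at 69.2 and 62.3 at E16 and 184 and 197 at E18. The fall was close to the limit of 1 and went under it, to -0.91, without E12 replicate 1 or E14 replicate 2. The lateral cadherin Cdh17 differed widely between the E12 libraries, with 6 counts (0.203 CPM) in replicate 1 and 802 counts (25.6 CPM) in replicate 2 (4 and 75 counts in E12 forestomach), and was then at 309 and 353, 989 and 936, and 2545 and 2559 CPM. In the fit of all 27 embryonic libraries only its first step passed (4.68 ± 0.92, edgeR adjusted p = 9.0e-04), although no 2 later stages overlapped. Fits of only the compared groups called both later steps (1.58 and 1.36, edgeR adjusted p = 1.5e-05 and 2.5e-07) and not the first (4.67, adjusted p = 0.159). That first step was 3.70 without E12 replicate 1 and 10.64 without replicate 2.

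Counted over the set, 6 members rose and 1 fell from E12 to E14, where 11.3% of all genes tested were called higher and 4.89% lower. From E14 to E16, 7 rose (13.7% of all genes called higher), and from E16 to E18, 8 rose (20.1%). Markers of other cell types moved over the same stages: the 4 goblet cell markers took 0.00657% and 0.00762% of counts at E14, 0.22% and 0.19% at E16 and 0.316% and 0.31% at E18, and the 3 enteroendocrine markers 0.00816% and 0.00855%, 0.0412% and 0.0351%, and 0.0374% and 0.0369%. The non-epithelial markers were at 0.0528% and 0.0579% at E14, 0.206% and 0.221% at E16 and 0.0571% and 0.0595% at E18. Their part in the rise of the members was not tested. The median log2 change of the 10 was 1.66, 1.67 and 2.09 over the 3 steps, beside 0.07, -0.08 and -0.05 for all genes tested. When only the 4 libraries of E12 and E14 were fitted, none of the 7 early calls held (edgeR; 0 members called at an adjusted p and 7 at an unadjusted p under 0.05), while DESeq2 on all libraries called 7.

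**Figure D1:**
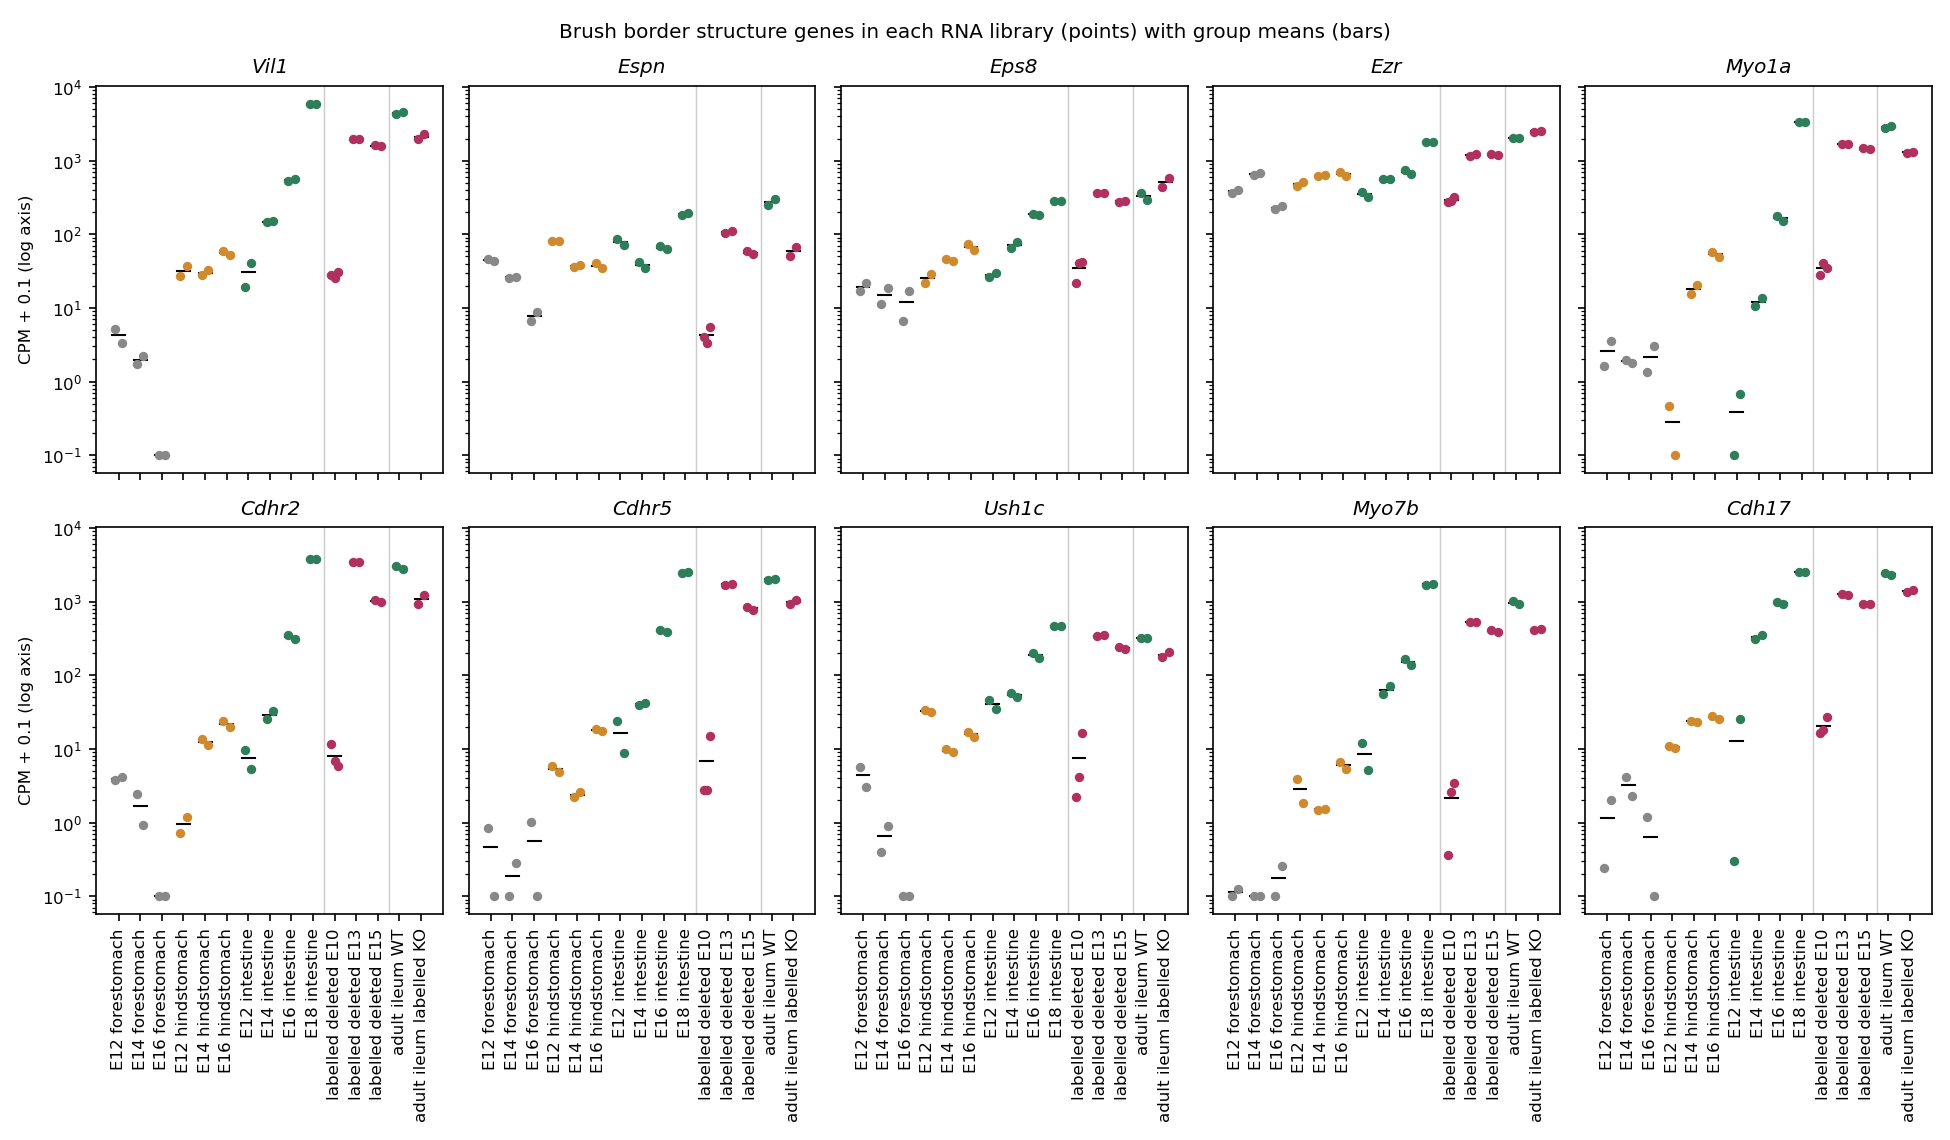
CPM (log axis, with 0.1 added so that a value of 0 is drawn at 0.1) of the 10 genes in each of 31 RNA libraries, as points, with the group mean as a bar; grey is forestomach, orange hindstomach, green wild-type intestine and ileum, and red the libraries labelled as Cdx2-deleted. Vil1 climbs from 30.2 CPM on average at E12 to 5943 CPM at E18 in small intestine, is at 0 in both E16 forestomach libraries, and is at 27.8 CPM in the libraries labelled deleted at E10.

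At E12 the hindstomach held several members at levels near those of the small intestine. Vil1 was at 26.9 and 37.2 CPM in hindstomach, between its 2 intestinal libraries, and Ush1c was at 33.4 and 31.5. Cdx2 was at 116 and 160 CPM in those hindstomach libraries, against 153 and 115 in small intestine and 12.7 and 6.2 in hindstomach at E14. Between small intestine and hindstomach at E12, 2 members were called, both higher in intestine (3.67% of all genes called higher), Cdhr2 by 3.12 ± 0.40 in log2 and Myo7b by 1.60 ± 0.45 (edgeR adjusted p = 4.0e-05 and 0.0239). The Myo7b call was lost without hindstomach replicate 2 (adjusted p = 0.202) or intestine replicate 1 (0.281). Cdh17 turned from 0.28 to -5.68 in that contrast when E12 intestine replicate 2, the library with 802 counts, was left out.

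At E14 the small intestine stood above the hindstomach for 6 members, and at E16 for 8. The E14 calls (3.35% of all genes called higher) were Vil1, Cdh17, Cdhr2, Cdhr5, Ush1c and Myo7b, and the widest was Myo7b, at 56 and 70.8 CPM in intestine against 1.38 and 1.43 in hindstomach (5.49 ± 0.51 in log2, edgeR adjusted p = 7.9e-07). Myo1a was not among them, at 10.5 and 13.6 CPM in intestine and 15.4 and 20.5 in hindstomach (-0.58 ± 0.39, edgeR adjusted p = 0.417). The E14 calls of Cdh17 and Cdhr2 were lost without either hindstomach library, with adjusted p of 0.0874 and 0.0931 for Cdh17 and of 0.0771 and 0.154 for Cdhr2, and that of Cdhr2 also without intestine replicate 2 (0.11).

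At E16 (8.1% of all genes called higher) the differences ran from 1.46 ± 0.30 in log2 for Eps8 to 5.16 ± 0.93 for Cdh17, which was at 989 and 936 CPM in intestine and 28 and 25.7 in hindstomach (edgeR adjusted p = 2.4e-04). The median of the 10 was 3.44, beside -0.18 for all genes tested. Ezr was at 751 and 662 CPM in E16 intestine and 698 and 613 in E16 hindstomach, which overlap (0.11 ± 0.11, edgeR adjusted p = 0.482). At E12 it lay lower in intestine, at 374 and 325 CPM against 452 and 517, with a difference that passed on p but not on size (-0.47 ± 0.12, edgeR adjusted p = 0.00961), and at E14 it was at 557 and 558 against 624 and 630 (adjusted p = 0.426). Espn was higher in intestine by 0.81 ± 0.16 in log2, under the limit of 1 (edgeR adjusted p = 6.0e-04). All 8 E16 calls held when any 1 of the 4 libraries was left out, and with DESeq2 that of Myo1a was lost (adjusted p = 0.0675). Epcam was also higher in E16 intestine than in E16 hindstomach, at 1284 and 1291 CPM against 421 and 400 (1.65 ± 0.13, edgeR adjusted p = 1.8e-08), a larger difference than those of the called members Eps8 and Myo1a (1.63). Goblet cell markers were at 0.22% and 0.19% of counts in E16 intestine against 0.043% and 0.0562% in hindstomach, and tuft cell markers at 0.00024% and 0.000414% against 0.00891% and 0.00695%. At E14 enteroendocrine markers were at 0.00816% and 0.00855% in intestine against 0.0571% and 0.0592% in hindstomach. The part of Epcam and of these markers in the differences was not tested.

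**Figure D2:**
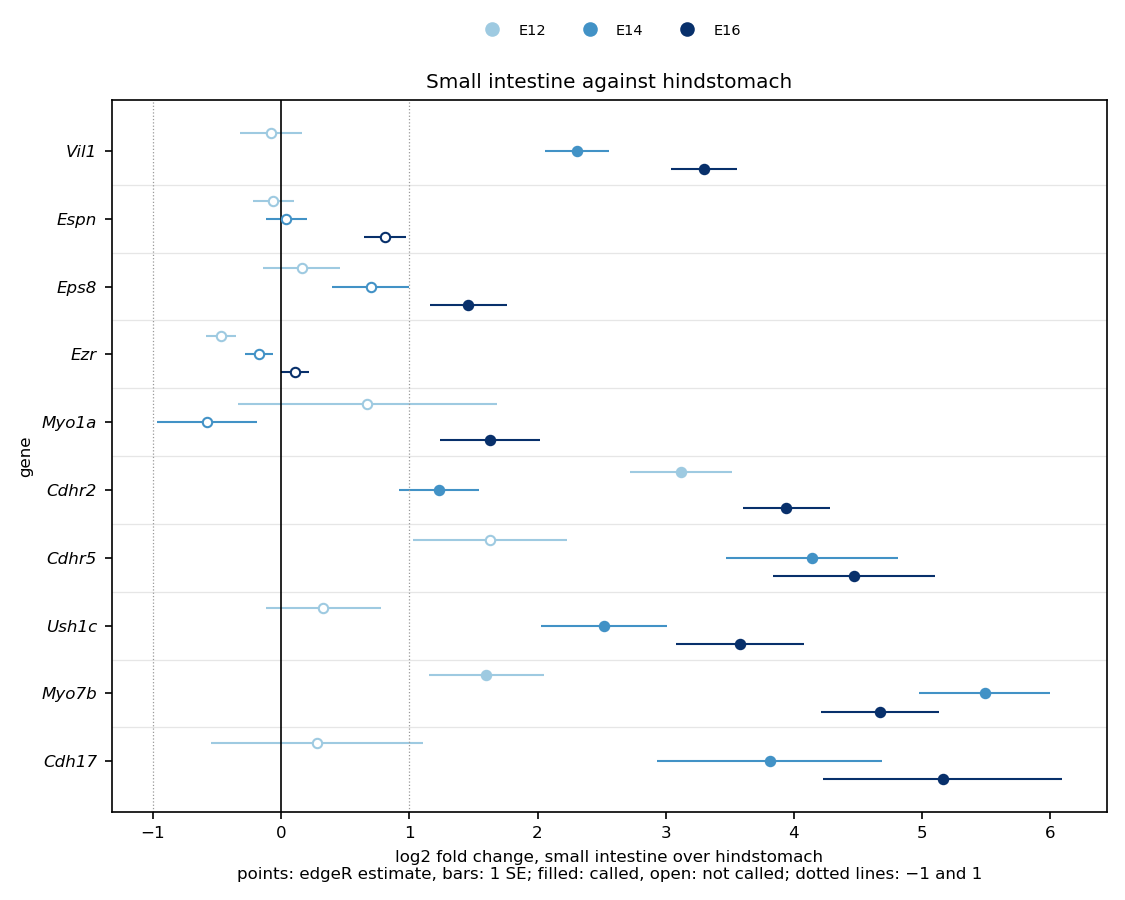
Log2 fold change of small intestine over hindstomach for each gene at E12, E14 and E16 (edgeR estimate, bars of 1 SE, filled where called). The E16 points lie between 0.11 for Ezr and 5.16 for Cdh17, and the E14 points of Myo1a, Espn and Ezr lie at -0.58, 0.04 and -0.17.

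Within the hindstomach, 4 members changed between E12 and E14. From E12 to E14, Cdhr2 rose from 0.615 and 1.08 CPM to 13.5 and 11.3 (3.86 ± 0.40, edgeR adjusted p = 1.2e-06), and Myo1a from 0.369 and 0 to 15.4 and 20.5 (6.58 ± 0.62, adjusted p = 2.7e-07). Enteroendocrine markers were at 7.92e-06% and 0.000112% of counts in E12 hindstomach and 0.0571% and 0.0592% at E14. Cdx2 was at 116 and 160 CPM in E12 hindstomach and 12.7 and 6.2 at E14. The part of these markers and of Cdx2 in the rises and falls of this interval was not tested. The size for Myo1a was 11.74 without E12 replicate 1 and 5.59 without replicate 2. Ush1c fell over the same interval, from 33.4 and 31.5 to 9.81 and 8.95 CPM (-1.79 ± 0.48, edgeR adjusted p = 0.00829), as did Espn, from 81.9 and 81.7 to 36.4 and 38.5 (-1.13 ± 0.16, adjusted p = 3.4e-05). The 2 rises stand against 10.8% of all genes called higher and the 2 falls against 6.46% called lower, and that of Ush1c was lost without either E14 library (adjusted p = 0.0558 and 0.069). From E14 to E16 the hindstomach gained in Cdhr5, Myo7b and Myo1a (16.5% of all genes called higher), Myo1a reaching 58 and 48.5 CPM. The Myo1a call of that interval was lost without E14 replicate 1 (edgeR adjusted p = 0.0688) and in DESeq2 (0.06). Over that interval goblet cell markers went from 0.00808% and 0.00835% of counts to 0.043% and 0.0562%, non-epithelial markers from 0.0201% and 0.0215% to 1.15% and 1.26%, and Epcam from 752 and 737 CPM to 421 and 400; their part was not tested.

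The E14 to E16 rise was steeper in intestine than in hindstomach for 2 members in a direct test of the difference, where 3.92% of all genes were called in that direction. Cdhr2 gained 2.71 ± 0.44 more in log2 (edgeR adjusted p = 3.3e-04) and Myo1a 2.21 ± 0.55 more (adjusted p = 0.00847). Vil1 reached 0.99 ± 0.34 (edgeR adjusted p = 0.0583), and Myo7b, at -0.82 ± 0.64, leaned the other way without passing (adjusted p = 0.452). The Myo1a call was lost without E14 hindstomach replicate 2 or E14 intestine replicate 1 (adjusted p = 0.0502 and 0.0546) and in DESeq2 (0.122). A fit of only the 8 libraries involved called 5 members.

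The forestomach, which becomes a squamous lining, was the low point for most of the set. Myo7b had 1 count over both E12 libraries, none at E14 and 1 at E16. Vil1 went from 5.04 and 3.26 CPM at E12 to 1.63 and 2.1 at E14 and to 0 counts in both E16 libraries, where 0 counts allow up to 0.463 and 0.459 CPM. The E12 to E14 fall of Vil1 (-1.13 ± 0.31, edgeR adjusted p = 0.0115) was called beside those of Cdhr2 and Ush1c (5.13% of all genes called lower). Of these 3 calls, 1 was left without replicate 1 of E12 or replicate 1 of E14, and 2 without either replicate 2. From E14 to E16, 4 members fell in forestomach (16.9% of all genes called lower): Vil1 by at least 4.04-fold and Cdhr2 by at least 3.45-fold, to 0 counts, Espn from 25.7 and 26 CPM to 6.48 and 8.73, and Ezr from 637 and 674 to 219 and 243. Epcam was lower as well in that contrast (-2.71 ± 0.14 in log2), and its part in these falls was not tested.

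At E16 all 10 members were higher in small intestine than in forestomach, where 16.4% of all genes were called higher, and all 10 were higher in hindstomach than in forestomach, where 13.8% were. In the latter contrast Cdh17 rested on few forestomach counts: its difference of 5.63 was 12.38 without forestomach replicate 1, and 4.63 and no longer called without replicate 2 (edgeR adjusted p = 0.0686). Against the floor of 3 counts in each forestomach library, E16 intestine held at least 1190-fold more Vil1, 722-fold more Cdhr2 and 405-fold more Ush1c. For Myo7b the ratio was 1964, with a counting interval of 352 to 77586. The median of the 10 was 9.08 in log2 with these 4 genes at their bound or ratio, and 10.27 as fitted, beside 0.00 for all genes tested. The difference reached even Ezr, at 219 and 243 CPM in E16 forestomach and 751 and 662 in intestine (1.61 ± 0.12, edgeR adjusted p = 1.8e-09), but Epcam was also lower in these forestomach libraries, by 3.37 ± 0.14. In bulk RNA, fewer epithelial cells and less RNA per cell cannot be told apart. At E14, where the non-epithelial markers were at most 0.0579% in every library, 8 members were higher in intestine than in forestomach (7.29% of all genes called higher), Espn and Ezr being the exceptions. The 4 squamous markers took 0.105% and 0.108% of counts in E14 forestomach against 5.6e-05% and 0.000103% in E14 intestine and 0.00129% and 0.0014% in E14 hindstomach, and 0.324% and 0.255% in E16 forestomach; their part was not tested. At E14, 8 members were also higher in hindstomach than in forestomach (5.62%). Of these 8, 6 were left without any 1 of the 4 libraries, Cdh17 and Cdhr5 losing their calls each time (edgeR adjusted p = 0.126 to 0.288 and 0.0612 to 0.188), and that of Cdh17 was also lost in DESeq2 (0.0902) and with RLE scaling (0.0517). At E12, small intestine was higher than forestomach for 5 members and lower for Myo1a (4.72% of all genes called higher and 5.37% lower), with Myo1a at 1.52 and 3.44 CPM in forestomach and 0 and 0.573 in intestine (-3.09 ± 0.65, edgeR adjusted p = 0.00303). That fall was -2.35 and no longer called without forestomach replicate 2. It was -8.92 without intestine replicate 2 and -2.13 without intestine replicate 1. The E12 rise of Cdh17 turned to -2.44 without intestine replicate 2. Hindstomach against forestomach at E12 gave 5 members higher and 2 lower, Cdhr2 and Myo1a (4.28% of all genes called higher and 2.83% lower), among which the Cdh17 call (adjusted p = 0.047) was lost without any 1 of the 4 libraries.

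In the libraries labelled deleted at E10, all 10 members were lower than in E16 wild-type small intestine. This contrast was broad, with 27.6% of all genes tested called lower, and the median of the 10 was -4.54 in log2 beside -0.10 for all genes tested. Myo7b fell furthest, to 0.267, 2.52 and 3.34 CPM from 164 and 137 (-6.36 ± 0.47, edgeR adjusted p = 1.0e-09). Cdhr5 fell to 2.67, 2.68 and 14.7 CPM from 408 and 391 (-6.03 ± 0.60, edgeR adjusted p = 3.6e-08), and its 3 libraries differed among themselves, replicate 3 standing above the others. The same replicate held the most Ush1c, at 16.1 CPM against 2.14 and 4.03. Without it the falls were -7.22 for Cdhr5 and -5.95 for Ush1c, and without replicate 1 that of Myo7b was -5.71. Vil1 was tight, at 27.9, 25.2 and 30.3 CPM against 537 and 561 (-4.31 ± 0.24, edgeR adjusted p = 2.7e-11). Espn fell to 3.94, 3.27 and 5.43 CPM from 69.2 and 62.3 (-3.99 ± 0.17, edgeR adjusted p = 6.5e-13), the lowest level of Espn in any of the 15 groups. The smallest falls were those of Ezr (-1.26 ± 0.10), Myo1a (-2.26 ± 0.35) and Eps8 (-2.43 ± 0.27). Epcam was not lower here, at 2439, 2133 and 1849 CPM against 1284 and 1291, and the non-epithelial markers were at 0.0214% to 0.0392% of counts against 0.206% and 0.221%. Other epithelial markers moved with the fall. The 4 squamous markers, all detected in each library of the E10 label, took 0.0823%, 0.0537% and 0.0178% of counts, and in E16 wild type 2 and 3 of them were at 0 and the rest took 6.01e-05% and 1.2e-05%. The 4 goblet cell markers were at 0.0326% to 0.0457% against 0.22% and 0.19%, and the 3 enteroendocrine markers at 0.000357% to 0.00335% against 0.0412% and 0.0351%. The part of these cell types in the fall of the members was not tested. All 10 calls held when any 1 of the 5 libraries was left out.

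The level left in these libraries was set beside the E16 stomach. Against E16 hindstomach, 7 members were lower (34.6% of all genes called lower, median of all genes -0.49), and the fall of Espn was widest (-3.18 ± 0.17, edgeR adjusted p = 4.9e-12). Vil1 (edgeR adjusted p = 6.9e-04) stood at the size limit of the call and went under it with DESeq2 and with RLE scaling (-0.86 in both). Cdhr5 and Ush1c lost their calls in DESeq2 (adjusted p = 0.221 and 0.13), and Ush1c also with RLE scaling (edgeR adjusted p = 0.0556). Epcam was at 2439, 2133 and 1849 CPM under the E10 label against 421 and 400 in E16 hindstomach, and its part was not tested. Cdh17, at 16.2, 18.1 and 27.1 CPM against 28 and 25.7, and Myo1a, at 27.5, 40.9 and 34.8 against 58 and 48.5, did not pass (edgeR adjusted p = 0.649 and 0.116). Leaving out single libraries gave 3 to 8 calls in this contrast. The count fell to 3 without replicate 2 of the E10 label and to 4 without hindstomach replicate 1. Against E16 forestomach, 8 members were higher (24.7% of all genes called higher), Vil1 at least 60.2-fold. Espn was not among them, at -0.88 ± 0.19 in log2 (edgeR adjusted p = 5.5e-04), nor was Ezr (0.35 ± 0.11, adjusted p = 0.00779), and without forestomach replicate 2 the count was 5.

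In the libraries labelled deleted at E13 and collected at E16, 5 of the 10 members were called higher than in wild-type E16 intestine and 0 lower. Cdhr2 was at 3450 and 3484 CPM against 350 and 316 (3.38 ± 0.33, edgeR adjusted p = 9.4e-08), Myo1a at 1694 and 1691 against 176 and 153 (3.36 ± 0.41, adjusted p = 1.1e-06) and Vil1 at 1984 and 1951 against 537 and 561 (1.84 ± 0.25, adjusted p = 5.3e-06). With Cdhr5 and Myo7b, 5 members rose, where 18.7% of all genes were called higher, and that of Cdhr5 was lost in DESeq2 (adjusted p = 0.0684). Goblet cell markers were at 0.464% and 0.463% of counts here against 0.22% and 0.19% in E16 wild type, 7 immune markers at 0.13% and 0.135% against 0.0295% and 0.029%, and 2 tuft cell markers at 0.00251% and 0.00256% against 0.00024% and 0.000414%; their part was not tested. The estimates of the other 5 were also above 0, from 0.38 for Cdh17 to 0.97 for Eps8. Set beside E18 wild type instead, 7.91% of all genes were called lower and 2 members were among them, Vil1 (-1.59 ± 0.24, edgeR adjusted p = 8.1e-05) and Myo7b, at 531 and 536 CPM against 1709 and 1748 (-1.70 ± 0.39, adjusted p = 0.00349). Cdhr2 stood just under its E18 level of 3811 and 3758 CPM (-0.13 ± 0.30, edgeR adjusted p = 0.835). These libraries carry the stage label E16 and the trypsin and Epcam preparation, and no value here tells stage, strain, Cre, tamoxifen and genotype apart.

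In the libraries labelled deleted at E15, 6 members fell and all 10 were still expressed. Vil1 was at 1633 and 1559 CPM against 5965 and 5922 in E18 wild type (-1.90 ± 0.25, edgeR adjusted p = 1.2e-05), Cdhr2 at 1052 and 983 against 3811 and 3758 (-1.90 ± 0.31, adjusted p = 1.2e-04) and Myo7b at 410 and 384 against 1709 and 1748 (-2.12 ± 0.40, adjusted p = 5.0e-04). Espn, at 58.6 and 53.7 CPM against 184 and 197, fell by 1.76 ± 0.16 on the log2 scale (edgeR adjusted p = 1.7e-07). Cdhr5 and Myo1a were the other members that fell, where 9.7% of all genes were called lower. The median of the 10 was -1.54 beside 0.00 for all genes tested. Cdhr5 and Myo1a lost their calls without any 1 of the 4 libraries (adjusted p = 0.0968 to 0.171 and 0.0784 to 0.126), and in DESeq2. Goblet cell markers were at 0.582% and 0.529% of counts against 0.316% and 0.31%, enteroendocrine markers at 0.0146% and 0.0144% against 0.0374% and 0.0369%, immune markers at 0.0119% and 0.0118% against 0.0538% and 0.0563%, and tuft cell markers at 0.00208% and 0.0017% against 0.000504% and 0.000611%; their part was not tested. Cdh17, at 916 and 942 CPM against 2545 and 2559, and Ush1c, at 246 and 228 against 464 and 473, lay lower without being called. A fit of only the compared groups called both (-1.50 and -1.02 in log2). Eps8 overlapped, at 272 and 287 CPM against 281 and 279, and Ezr, at 1245 and 1203 against 1791 and 1807, changed by -0.56 ± 0.12, under the limit.

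The effect under the E10 label was larger than that under the E15 label for 8 members in a direct test of the difference, where 21.4% of all genes were called in that direction. The differences between the effects ran from -2.22 ± 0.23 in log2 for Espn to -4.41 ± 0.79 for Cdhr5 (edgeR adjusted p = 1.6e-07 and 1.1e-04), the latter -5.60 without replicate 3 of the E10 label. Ush1c moved from -3.79 to -4.96 without that replicate, and Myo7b from -4.24 to -3.59 without replicate 1. Myo1a (-1.07 ± 0.51, edgeR adjusted p = 0.0941) and Ezr (-0.71 ± 0.16, adjusted p = 8.0e-04) were not called. The labels differ in Cre line, tamoxifen, stage and preparation as well as in the day of deletion, and each effect is against its own wild type.

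**Figure D3:**
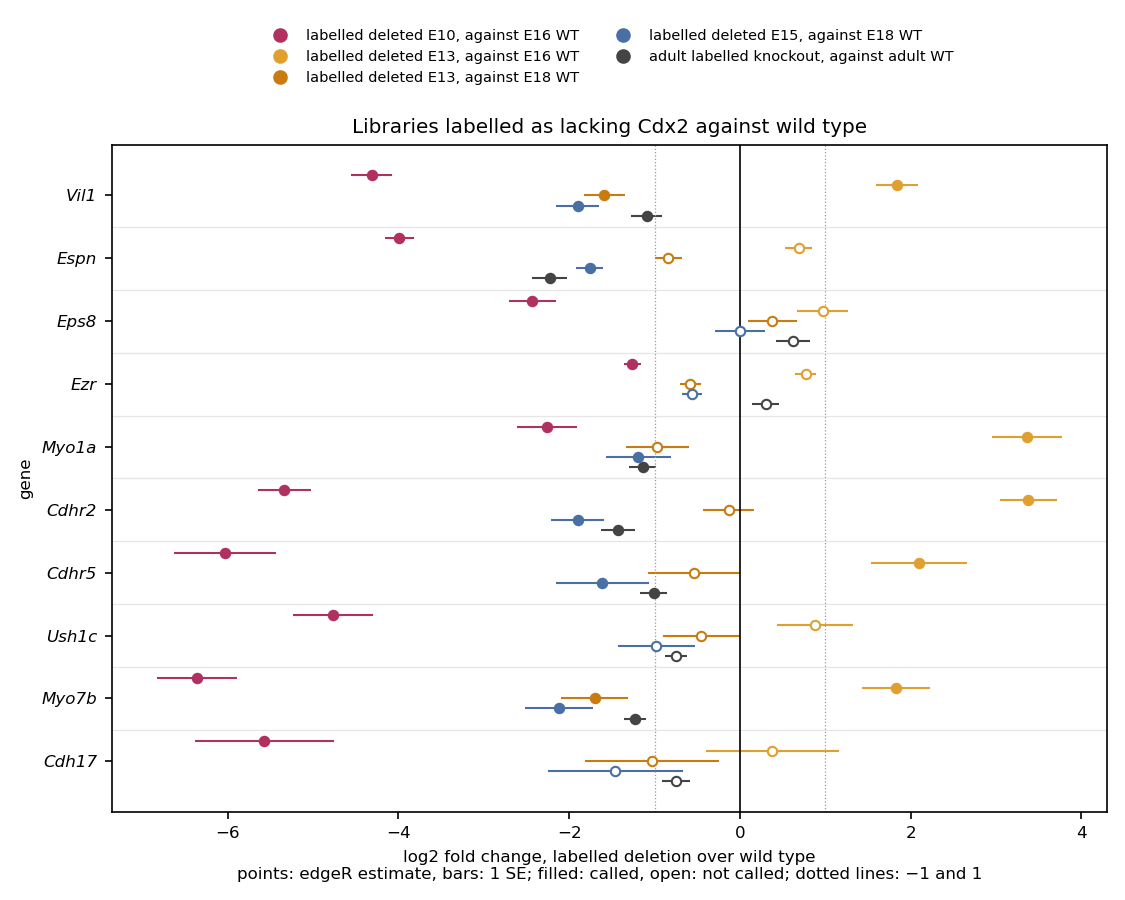
Log2 fold change of libraries labelled as Cdx2-deleted over wild type for each gene, in 5 comparisons (edgeR estimate, bars of 1 SE, filled where called). All 10 points of the E10 label lie below -1, those of the E13 label against E16 lie above 0, and Ezr and Eps8 lie at -0.56 and 0.00 under the E15 label and at 0.30 and 0.62 in the adult.

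In adult ileum villi labelled knockout 6 of the 10 members fell, where 12% of 12444 genes tested were called lower. They were Vil1, Cdhr2, Cdhr5, Myo7b, Myo1a and Espn. Espn was at 50.6 and 67.3 CPM against 251 and 302 (-2.23 ± 0.20, edgeR adjusted p = 0.00383), Cdhr2 at 942 and 1220 against 3045 and 2786 (-1.43 ± 0.20, adjusted p = 0.00975) and Vil1 at 1970 and 2281 against 4373 and 4649 (-1.09 ± 0.18, adjusted p = 0.015). The median of the 10 was -1.05, beside 0.01 for all genes tested. Cdh17 and Ush1c, each at -0.75, passed on p (edgeR adjusted p = 0.0252 and 0.0162) but not on size. Ezr, at 2472 and 2544 CPM against 2008 and 2060, and Eps8, at 441 and 574 against 364 and 296, lay above their controls in both libraries without being called (0.30 ± 0.16 and 0.62 ± 0.20, edgeR adjusted p = 0.193 and 0.0672). Goblet cell markers were at 0.804% and 0.68% of counts against 0.947% and 1.1%, enteroendocrine markers at 0.0031% and 0.00241% against 0.0178% and 0.0107%, and immune markers at 0.0335% and 0.0304% against 0.0666% and 0.225%; their part was not tested. Without knockout replicate 1 only Espn and Myo7b kept their calls; the calls of Vil1 and Cdhr5 were also lost without wild-type replicate 2.

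Over all 15 groups the levels of Vil1 were ordered from 0 in E16 forestomach to 5943 ± 29.8 CPM in E18 small intestine (SD, n = 2). In that order the libraries labelled deleted at E10 (27.8 ± 2.55, n = 3), E14 hindstomach (30 ± 3.26), E12 small intestine (30.2 ± 15.4) and E12 hindstomach (32.1 ± 7.31) overlapped with their neighbours, as did the E13 label (1968 ± 23.5) with the adult knockout label (2125 ± 221). Ezr was ordered otherwise: its highest group was the adult knockout label, at 2508 ± 50.8 CPM, and its lowest E16 forestomach, at 231 ± 17.5. Across the 15 group means, which share libraries, depth and 2 kits, the 2 members most alike in log2 CPM were Cdhr5 and Myo7b (Pearson r = 0.993) and the 2 least alike were Myo1a and Espn (r = 0.464). Likeness was computed over 10526 genes, and the members were left out of the ranking. The pattern of Vil1 was most like that of Hnf4a (r = 0.966), which encodes a transcription factor of gut and liver epithelium, followed by Chmp4c, Mia2, B4galnt2 and Slc39a5 (r = 0.960 to 0.965). Hnf4a was also among the 5 genes nearest to the mean of the 10 members (r = 0.9695), with Sel1l3, Pklr, Il22ra1 and Igf2r.

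The other genes of the microvillus and its terminal web, 28 in the table and none of them members, were counted by the same rule. Between small intestine and hindstomach at E16, 15 of 28 were called, all of them higher in intestine (8.1% of all genes), led by Pdzk1, a scaffold of apical transporters, at 116 ± 1.57 against 2.66 ± 0.304 CPM, and Calml4, a light chain of the adhesion complex motor, at 299 ± 8.89 against 23.7 ± 1.05. Under the E10 label 16 fell and 3 rose, beside 27.6% of all genes called lower and 23.9% called higher, and under the E15 label the 6 called genes all fell (9.7% of all genes). In the adult 5 fell and 3 rose, shares not far from the 12% and 8.41% of all genes. Pdzk1 was among the widest falls in all 3, by -3.67 ± 0.27, -4.83 ± 0.32 and -7.23 ± 0.29 in log2 (edgeR adjusted p = 7.0e-10, 2.6e-09 and 8.7e-04). Pls1, the actin bundler fimbrin, fell from 1919 ± 12.8 to 490 ± 18.2 CPM under the E15 label (-1.97 ± 0.20, edgeR adjusted p = 5.2e-07).

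The digestive enzymes carried on the same membrane were set beside the structural genes. Of 14 apical hydrolases, 11 fell and 3 rose under the E10 label (27.6% and 23.9% of all genes), with a median of -3.88 in log2 against -4.54 for the 10 structural members. Of the same 14, 13 fell under the E15 label (9.7% of all genes) with a median of -3.34 in log2, against -1.54 for the 10 structural members, and 9 of 13 tested fell in the adult, beside 12% of all genes (median -2.55 against -1.05). Lactase (Lct) went from 4920 ± 1.24 CPM in E18 wild type to 27.3 ± 2.22 under the E15 label (-7.49 ± 0.39, edgeR adjusted p = 2.1e-10). Under the E13 label set beside E18 wild type, 11 hydrolases fell where 2 structural members did (7.91% of all genes), with medians of -3.80 and -0.71. Set beside E16 wild type, 7 hydrolases rose and 5 fell (18.7% and 20.8% of all genes), where 5 structural members rose. In that contrast the medians were 1.44 for the hydrolases and 1.40 for the structural members. The difference between the lists was not tested.

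Relatives of the members by gene family went both ways. Of 24 such genes, 4 of which are also in the list of 28, 5 were higher and 11 lower in small intestine than in hindstomach at E16 (8.1% and 17.5% of all genes), with a median of -1.26. Vill, a villin-like relative of Vil1, was lower in intestine (4.47 ± 0.224 against 45.7 ± 7.48 CPM) and rose under the E10 label (to 54.8 ± 3.52), under the E15 label (4.04 ± 0.0148 against 0.521 ± 0.193) and in the adult (46.3 ± 2.11 against 1.22 ± 0.0427). In log2 these rises were 3.61 ± 0.24, 3.00 ± 0.34 and 5.24 ± 0.16 (edgeR adjusted p = 1.5e-10, 1.6e-06 and 7.0e-04). Eps8l3, a relative of Eps8, was at 318 ± 9.73 CPM in E16 intestine and 28.8 ± 2.33 in E16 hindstomach.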

How the data were processed

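RNA was measured by RNA-seq with 75-base single-end reads, from SMARTer v4 libraries in the embryo and TruSeq libraries in the adult, per the labels' protocols. The authors deposited whole-number read counts per gene symbol, and the submitters' processing notes name STAR 2.5.3a, HTSeq and build mm9. The strand setting of the counting is not given in the sources used here. Each adult column held 2 blank cells that shifted later rows by up to 2; they were closed up, which moved Vil1 and Ush1c by 2 rows and brought all 4 columns back into register with the embryonic ones. The table held 2 further columns that match no sample here and were not used. ATAC-seq and ChIP-seq files were not used here.

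Counts were scaled by TMM and tested with edgeR 4.0.16 (quasi-likelihood, R 4.3.3) after filterByExpr, on all 27 embryonic libraries together and on the 4 adult libraries apart. Alternatives were DESeq2 1.42.0, RLE scaling, no filter, a fit of the compared groups only, a replicate block, no minimum fold, and leaving out each library. The numbers do not pair the samples: correlations of same-numbered deviations ran from -0.152 to 0.097. On simulated counts for the E10 contrast (16972 genes), 14 of 50 genes changed by 2-fold and 45 of 50 changed by 4-fold were recovered. Named genes were the 10 members, at most the 2 widest called genes per direction from each other list, and the 5 most like Vil1 and the 5 most like the members' mean across groups. Members and lists were chosen with earlier results of these data known. Intervals (95%) and floors (3 counts) cover counting error only, and reads copied by PCR are not separate molecules.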

Additional observations from a re-analysis of the deposited data

Results flagged for a closer look

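The E14 to E16 change differed between small intestine and hindstomach, in a direct test of the difference, for Cdhr2 (2.71 in log2, higher in intestine) and Myo1a (2.21). The effect under the E10 label differed in the same kind of test from that under the E15 label for 8 members, as the first minus the second in log2: Vil1 -2.41, Cdh17 -4.11, Cdhr2 -3.45, Cdhr5 -4.41, Ush1c -3.79, Myo7b -4.24, Espn -2.22 and Eps8 -2.43. With 2 or 3 libraries in each group, no group was large enough for the search for a single library far from its group.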

How the results depend on the processing

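Of 25 counts of called members, RLE scaling and no filter kept all 25 within 1.5 times, and so did the replicate block, which gave 6 members for small intestine against forestomach at E12 as did the fit without it. The block was not a pairing, and with crossed numbers the adult count was 6 as well. With only the compared groups fitted, counts were 1 for intestine against forestomach at E12, 0 for intestine against hindstomach at E12 (1 at an unadjusted p under 0.05 by edgeR), 3 for hindstomach against forestomach at E12, 0 for intestine E14 against E12, 1 for forestomach E14 against E12, 2 for the E10 label against hindstomach and 5 for the steeper rise in intestine. DESeq2 gave 1 for intestine against hindstomach at E12 and 4 for the E10 label against hindstomach. With no minimum fold there were 5 calls for forestomach E14 against E12, 8 for the E13 label against E16 and 4 against E18. The adult count was 3 when all 31 libraries were fitted together. Leaving out single libraries gave 1 to 4 for intestine against hindstomach at E12, 1 to 2 for forestomach E14 against E12, 3 to 8 and 5 to 8 for the E10 label against hindstomach and forestomach, 2 to 6 in the adult and 1 to 2 for the steeper rise. At E12, Cdh17 in intestine ranged from -2.44 to 6.47 against forestomach and from -5.68 to 1.27 against hindstomach, both low values being those without intestine replicate 2, and 16 further signs turned in fold changes called in neither fit. Of 155 called fold changes 49 moved by over 1.5 times without 1 library, most of them with forestomach or E12 libraries at few counts. RLE scaling moved the share of higher calls among all genes from 68.8% to 56.5% for E16 hindstomach against forestomach and from 55.2% to 67.6% for forestomach E16 against E14, where the median gene moved by more than 0.1 as well. Other contrasts moved too, among them E16 intestine against forestomach (46.8% to 38.7%, median gene 0.00 to -0.19). For the E10 effect minus the E15 effect the share went from 47.9% to 55.8% (median 0.00 to 0.20). It went from 53.5% to 62.7% for intestine E16 against E14 and from 44.5% to 36.2% for the E15 label. The all-gene medians set beside the members thus depend on the scaling. The causes were not tested.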
